A study of Mus musculus with 12 samples.

Results

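The 8 genes described here encode the core of programmed cell death: Ripk1, Ripk3 and Mlkl of necroptosis, Casp8 and Apaf1 of apoptosis, and the restraining proteins Bcl2l1, Xiap and Birc3. They were taken by gene symbol from a deposited table of 28793 genes, and each symbol matched 1 gene. They were taken whatever their values, although the set was proposed with earlier results of these data known. The series holds 12 RNA sequencing libraries of large-intestinal crypts. The C57BL/6 mice, aged 3 months, differed in Tert, the catalytic subunit of telomerase. The unit is RPKM, which divides the reads of a gene by its length and by the mapped reads of the library, so levels of different genes can be ordered within a library.

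Of the 12 libraries, 6 were made from GFP-sorted crypt cells of the large intestine, labelled stem/progenitor cells: 3 from mTert_HET mice (heterozygous) and 3 from mTert_NULL_Generation3 mice (null G3). The remaining 6 were made from unsorted crypt epithelium. They comprised 2 from mTert_HET mice, 2 from mTert_NULL_Generation4 mice (null G4) and 2 from mTert_reactivated_Generation4 mice (labelled reactivated; the library descriptions add the tag G4tam). In telomerase-null lines the generation usually counts the successive crosses made without telomerase, and the 2 null groups differ in it as well as in sorting. The library descriptions label the heterozygous libraries of both fractions G0, so this label differs along with genotype in every comparison with them. What drives GFP is not given in the sources used here. Libraries of 1 group carry the label biological replicate with no animal named. A p-value here therefore measures the spread among libraries, possibly a technical one.

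Death receptors such as TNF receptor 1 recruit RIPK1 and CASP8 to 1 platform. Active CASP8 cleaves downstream caspases and causes apoptosis; it also cleaves RIPK1 and RIPK3, and where it is blocked RIPK3 phosphorylates MLKL, which breaks the plasma membrane. The mitochondrial route runs through APAF1, which binds cytochrome c and assembles the apoptosome, and BCL2L1 (BCL-xL) holds that route shut. XIAP inhibits caspases directly, and BIRC3 (cIAP2) is a ubiquitin ligase that keeps RIPK1 in its signalling form. In gut epithelium, loss of CASP8 in mice is known to cause necroptosis of epithelial cells.

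In unsorted crypts, 5 of the 8 genes (Ripk3, Apaf1, Casp8, Mlkl and Birc3) were higher in null G4 than in heterozygous libraries, and no member passed in the other direction (limma, adjusted p under 0.05; 4.97% of all genes tested passed as higher). The count was 1 (Ripk3) with median scaling or quantile normalization, where 1.28% and 1.18% of all genes passed as higher. It was 0 with a term for sex or without the filter on low values, where 0.515% and 0.0624% did. The promoters of the 5 are shown because these genes passed together with the values as deposited. The windows are the 250 bases before the transcription start in RefSeq, build GRCm38.p6, written 5′ to 3′ on the strand of the gene, and capitals mark a motif match.
Ripk3 (chr14:55788858-55789107, minus strand): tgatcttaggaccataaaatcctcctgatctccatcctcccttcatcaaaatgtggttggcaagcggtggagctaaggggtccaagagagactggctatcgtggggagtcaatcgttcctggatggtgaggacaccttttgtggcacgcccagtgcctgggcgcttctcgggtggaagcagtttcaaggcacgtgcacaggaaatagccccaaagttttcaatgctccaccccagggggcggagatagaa
Mlkl (chr8:111338206-111338455, minus strand): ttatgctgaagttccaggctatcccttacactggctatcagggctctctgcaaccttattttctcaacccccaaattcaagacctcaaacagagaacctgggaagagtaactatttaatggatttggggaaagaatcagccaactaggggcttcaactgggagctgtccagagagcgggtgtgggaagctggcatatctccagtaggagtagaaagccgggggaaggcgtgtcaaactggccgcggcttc
Casp8 (chr1:58802252-58802501, plus strand): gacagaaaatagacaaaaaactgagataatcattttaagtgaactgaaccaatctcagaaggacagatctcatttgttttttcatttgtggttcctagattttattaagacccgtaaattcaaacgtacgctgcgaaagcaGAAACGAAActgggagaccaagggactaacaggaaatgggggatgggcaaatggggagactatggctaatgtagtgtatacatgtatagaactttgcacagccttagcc
Apaf1 (chr10:91082744-91082993, minus strand): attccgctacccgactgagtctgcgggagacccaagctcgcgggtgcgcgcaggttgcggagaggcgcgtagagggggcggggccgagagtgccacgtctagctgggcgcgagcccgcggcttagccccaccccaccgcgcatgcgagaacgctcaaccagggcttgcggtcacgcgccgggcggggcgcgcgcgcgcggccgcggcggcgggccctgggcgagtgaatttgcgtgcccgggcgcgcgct
Birc3 (chr9:7873171-7873420, minus strand): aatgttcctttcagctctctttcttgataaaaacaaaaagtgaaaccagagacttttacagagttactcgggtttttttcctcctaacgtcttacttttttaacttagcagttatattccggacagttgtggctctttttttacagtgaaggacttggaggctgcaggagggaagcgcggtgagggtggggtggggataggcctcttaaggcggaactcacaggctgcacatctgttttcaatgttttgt

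The windows were searched on both strands for 4 short motifs, each a simplified core. The letters were GAAANNGAA (interferon response core), GAAANGAAA (the same with 1 base between the repeats), TTCNNNGAA (STAT core) and GGNNNTTCC (NF-kB core). The second was added after the Casp8 sequence had been read. A match was found in Casp8 alone of these 5: the letters GAAACGAAA, starting 109 bases before the transcription start. It matches the motif added later, and the other motifs had no match in these 5 windows. Of all 32851 promoter windows of the same length, 2.68% hold GAAANGAAA, 7.13% GAAANNGAA, 7.02% TTCNNNGAA and 15.7% GGNNNTTCC. A match is a description and not a binding site, and no match says only that these letters are not in this window.

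The 5 windows also differ in base composition. GC content was 75.6% in Apaf1, with 42 CpG, against 39.6% and 5 CpG in Casp8, 43.6% and 6 CpG in Birc3, 50.8% and 5 CpG in Mlkl, and 54.0% and 8 CpG in Ripk3. The median over all windows was 52.4% with 6 CpG, so the Apaf1 window was the rich one and the others were near or below the median. All 8 members matched RefSeq, with 13 starts in all, and 5 of the 13 held a match to at least 1 motif. Besides Casp8, these were 1 start of Ripk1, 1 of Xiap and 2 of Bcl2l1, none of which passed the test in null G4 crypts. Like Casp8, 1 of the Bcl2l1 starts matched only the motif added later. The share of all windows that hold any of the motifs was not computed, so the count of 5 is a description.

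By GENCODE M21 (GRCm38, the same assembly as mm10), the members lie on 8 chromosomes. Ripk1 is at chr13:34002363-34037147, Ripk3 at chr14:55784995-55788865 and Mlkl at chr8:111311797-111338177. Casp8 is at chr1:58795374-58847503 and Apaf1 at chr10:90989311-91082770. Bcl2l1 is at chr2:152780668-152831728, Xiap at chrX:42059679-42109656 and Birc3 at chr9:7848699-7873186. Ripk1 overlaps the coding gene Serpinb6a on the opposite strand and the processed pseudogenes Gm17083 and Gm17084. Mlkl overlaps the processed pseudogene Gm45712 and Apaf1 the small nuclear RNA gene Gm25390, both on the opposite strand. Casp8 overlaps Gm37760 on the same strand. These overlaps are of gene spans, introns included. Since the strand setting of the counting is not given in the sources used here, reads from stretches that these genes share cannot be told apart. Xiap is X-linked, which bears on the sex of the mice below.

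Several facts about the libraries touch all results. Tert itself was at 0.0424, 0.0583 and 0.169 RPKM in heterozygous sorted libraries and at 0, 0.0787 and 0.00131 in null G3, so these groups overlapped at trace levels. In unsorted crypts it was at 0.459 and 0.251 in heterozygous libraries and at 0.00778 and 0.0377 in null G4. The libraries labelled reactivated held 0.0171 and 0.0311 RPKM, within the null G4 range, so Tert RNA at this depth does not show the reactivation. The first sorted null G3 library stood apart. Its 7 small-intestinal markers summed to 3420 RPKM (14.3 to 20.5 in each of the remaining sorted libraries), its 5 colon markers to 18.6 against 136 or more, and the stem cell gene Lgr5 was at 0.121 against 3.4 to 4.74 RPKM. The 4 Y-linked marker genes summed to 18.3 and 18.9 RPKM in the heterozygous unsorted libraries, 0.0148 and 0.00791 in null G4, and 0.00647 and 18.2 in the libraries labelled reactivated. So genotype and sex cannot be told apart between heterozygous and null G4 crypts. Among sorted libraries the same Y-linked sum was 8.54 RPKM in the second null G3 library and 0.0562 or less in the rest. Sorted null G3 was thus mixed in sex, and no term for sex was fitted in sorted cells. The 2 ribosomal RNA genes of the mitochondrion took 38.7% to 71.9% of summed RPKM in sorted libraries, 19.2% and 27.3% in heterozygous unsorted ones, and 10.8% to 16.7% in the other unsorted ones. Where a library's lowest RPKM values step by the worth of 1 read, the step gives its depth. In unsorted libraries these steps put each member at 963 to 8700 reads, while 5 of the 6 sorted libraries had no single step and their depth is unknown. Epithelial markers summed to 525 RPKM or more in every library. In bulk libraries, fewer cells of a type and less RNA per cell cannot be told apart.

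**Figure D1:**
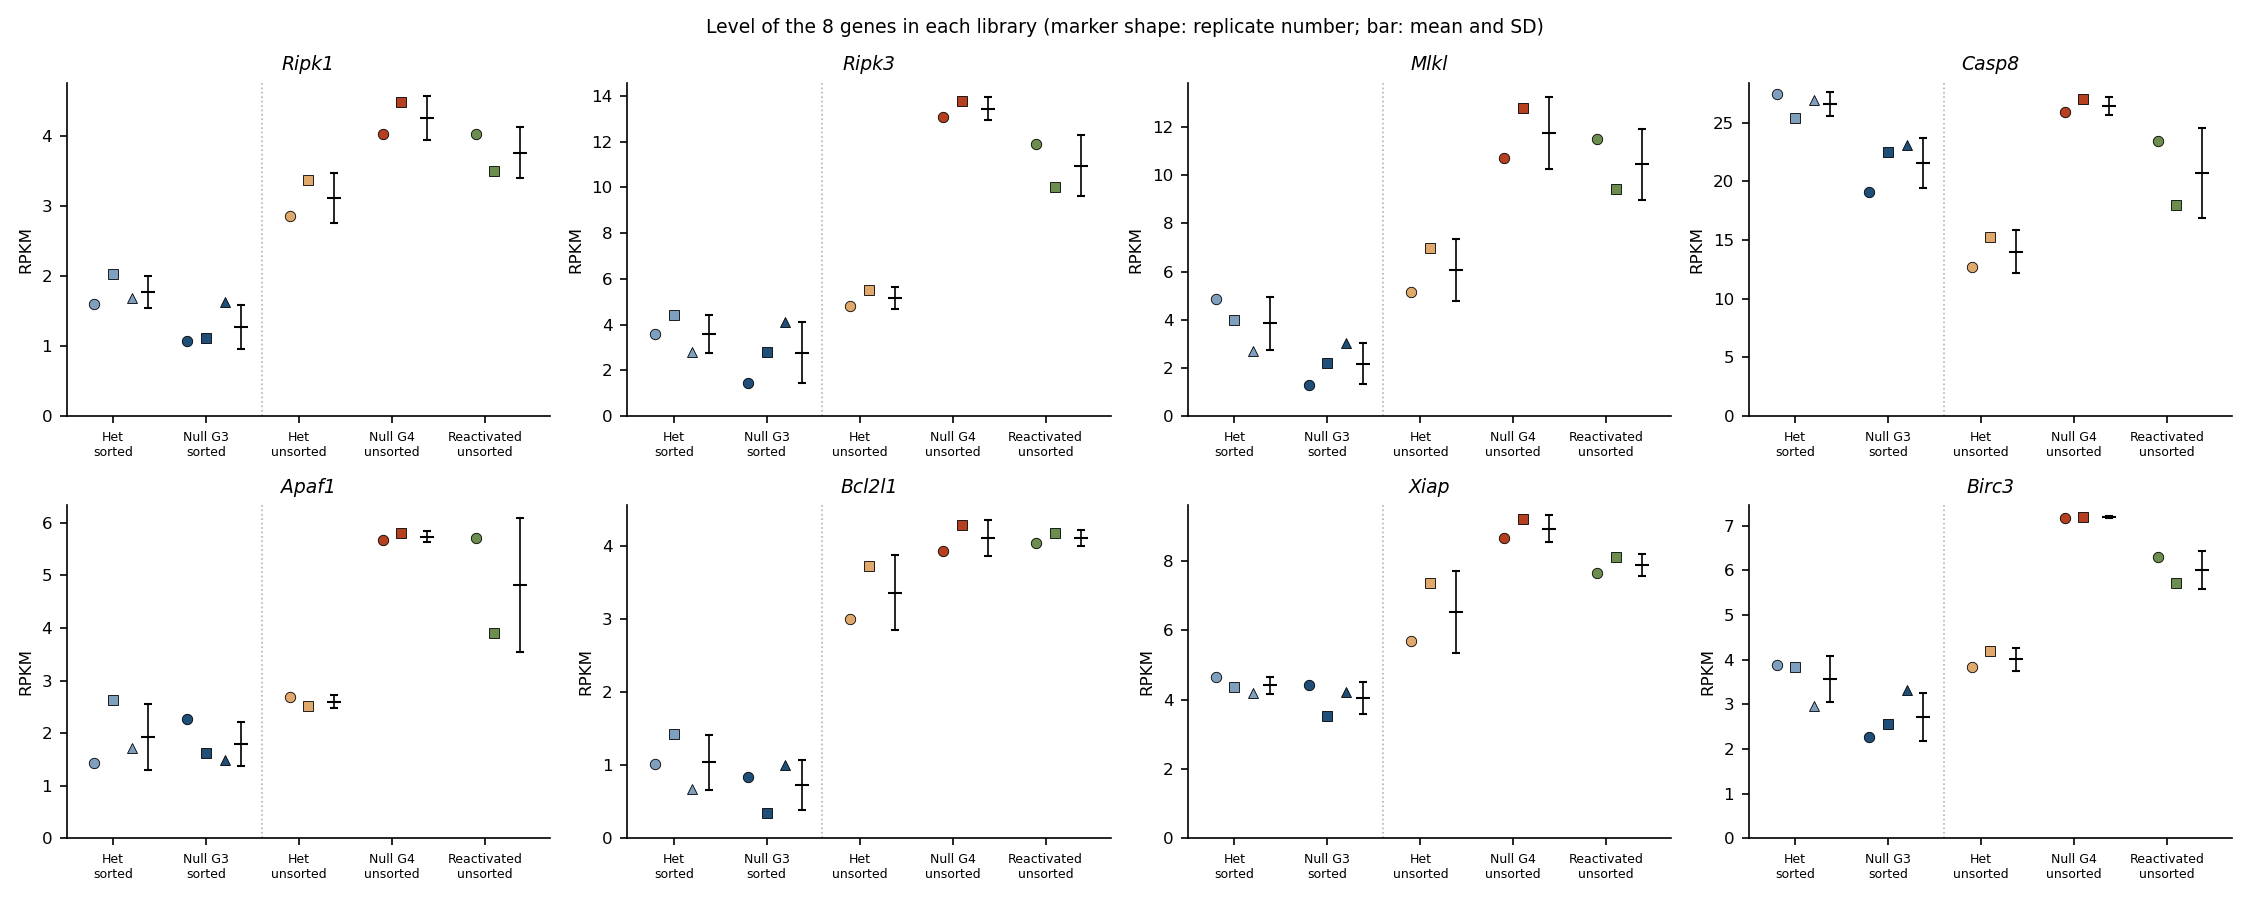
RPKM of each of the 8 genes (y axis, linear, from 0) in every library by group (x axis); points are libraries, with shape for the replicate number, and bars are the group mean and SD (n = 3 sorted, n = 2 unsorted). Null G4 libraries lie above both heterozygous unsorted libraries for all 8 genes (as for 74.7% of all genes), while sorted null G3 libraries overlap the heterozygous ones for all but Casp8 (below, as for 12.6% of all genes).

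The 3 necroptosis genes began from different levels and changed unequally in unsorted crypts. Ripk3, the kinase that commits a cell to necroptosis, was at 4.82 and 5.51 RPKM in heterozygous libraries, 13.1 and 13.8 in null G4; the libraries labelled reactivated had 11.9 and 10.0. The null G4 values lay above all others, and both heterozygous values below all others. Mean Ripk3 was 13.5 ± 0.469 RPKM (SD, n = 2) in null G4 against 5.17 ± 0.49 in heterozygous crypts, a 2.6-fold ratio. The difference on the log2(RPKM + 1) scale was 1.23 (SE 0.171; 95% interval 0.842 to 1.62; limma, adjusted p = 0.00803). On that scale the median of all 11464 genes tested was 0.361 higher in null G4, so Ripk3 stood 0.87 above it.

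Mlkl, the executor that RIPK3 phosphorylates, was at 5.14 and 6.97 RPKM in heterozygous libraries, 10.7 and 12.8 for null G4 and 11.5 and 9.42 under the label reactivated. Heterozygous libraries were again the lowest, but here null G4 and libraries labelled reactivated overlapped. Mlkl rose by 0.863 in null G4 (log2 difference, SE 0.2; limma, adjusted p = 0.047), a 1.94-fold ratio of means.

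Ripk1, the scaffold kinase upstream of both death routes, was at 2.86 and 3.37 RPKM in heterozygous libraries, 4.03 and 4.48 for null G4 and 4.02 and 3.5 under the label reactivated. The null G4 libraries lay above the heterozygous ones, yet the log2 difference of 0.354 (95% interval 0.0124 to 0.696) did not pass (limma, adjusted p = 0.105) and was near the median of all genes. Within a library, Ripk3 was 1.69 and 1.64 times Ripk1 in heterozygous crypts, 3.26 and 3.08 times for null G4 and 2.95 and 2.86 times under the label reactivated. These ratios, which no multiplicative scaling of a library alters, did not overlap between heterozygous and null G4. They restate the differences of the 2 genes and are no separate test. For 2 libraries against 2 the smallest two-sided p of an exact permutation test is 0.333, and none is given. Mlkl per Ripk3 went the opposite way, from 1.07 and 1.26 in heterozygous crypts to 0.816 and 0.929 in null G4.

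Casp8, the initiator caspase, was the most abundant of the 8 genes per length in every group. It was at 12.7 and 15.3 RPKM in heterozygous unsorted crypts, 25.9 and 27.0 in null G4, and 23.4 and 18.0 in libraries labelled reactivated. Heterozygous libraries were lowest and null G4 highest, with no overlap among the 3 groups. Casp8 rose by 0.874 (log2 difference, SE 0.209; 95% interval 0.398 to 1.35; limma, adjusted p = 0.0498) in null G4, a 1.89-fold ratio of means at the edge of the threshold. Its ratio to Cflar, which encodes the inactive caspase relative that restrains CASP8, was 4.17 and 4.3 in heterozygous crypts and 5.79 and 5.61 in null G4. Relative to Ripk3, by contrast, Casp8 was lower: 2.64 and 2.78 times Ripk3 in heterozygous crypts, 1.97 and 1.96 times in null G4. The log2 difference of Ripk3 was thus the larger and that of Cflar (0.391; limma, adjusted p = 0.0826, not passing) the smaller.

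Apaf1, the scaffold of the apoptosome, had the lowest level of the 8 genes in heterozygous unsorted crypts. It was at 2.69 and 2.51 RPKM there, 5.67 and 5.81 in null G4, and 5.72 and 3.91 in libraries labelled reactivated. The second of the latter lay between the other groups and the first within the null G4 range. Apaf1 rose by 0.905 (log2 difference, SE 0.176; 95% interval 0.502 to 1.31; limma, adjusted p = 0.0322) in null G4, a 2.21-fold ratio of means. Its partner caspase gene Casp9 did not pass (log2 difference 0.167, limma adjusted p = 0.356), and Apaf1 per Casp9 was 1.21 and 1.23 in heterozygous crypts against 2.44 and 2.13 in null G4.

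Among the 3 genes that restrain cell death, Birc3 passed and the others did not. Birc3 was at 3.83 and 4.19 RPKM in heterozygous crypts, 7.17 and 7.2 for null G4 and 6.31 and 5.71 under the label reactivated. The groups did not overlap, in the same order as for Casp8. Its log2 difference was 0.71 (SE 0.148; limma, adjusted p = 0.0388), a 1.79-fold ratio of means. The ratio of Birc3 to its close relative Birc2 (cIAP1) was 0.784 and 0.732 in heterozygous crypts and 0.994 and 0.931 in null G4. Xiap was at 5.7 and 7.37 RPKM in heterozygous libraries, 8.66 and 9.2 for null G4 and 7.66 and 8.11 under the label reactivated. Its log2 difference of 0.407 (95% interval 0.0131 to 0.8) did not pass (limma, adjusted p = 0.105). Bcl2l1 was at 3.0 and 3.72 RPKM in heterozygous libraries, 3.93 and 4.28 for null G4 and 4.03 and 4.18 under the label reactivated. It had the smallest difference of the 8, 0.231 (95% interval -0.11 to 0.572; limma, adjusted p = 0.242), which was below the median of all genes. Bak1, the pore-forming protein that BCL2L1 holds in check, was 3.33 and 3.5 times Bcl2l1 in heterozygous crypts and 5.55 and 6.03 times in null G4.

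**Figure D2:**
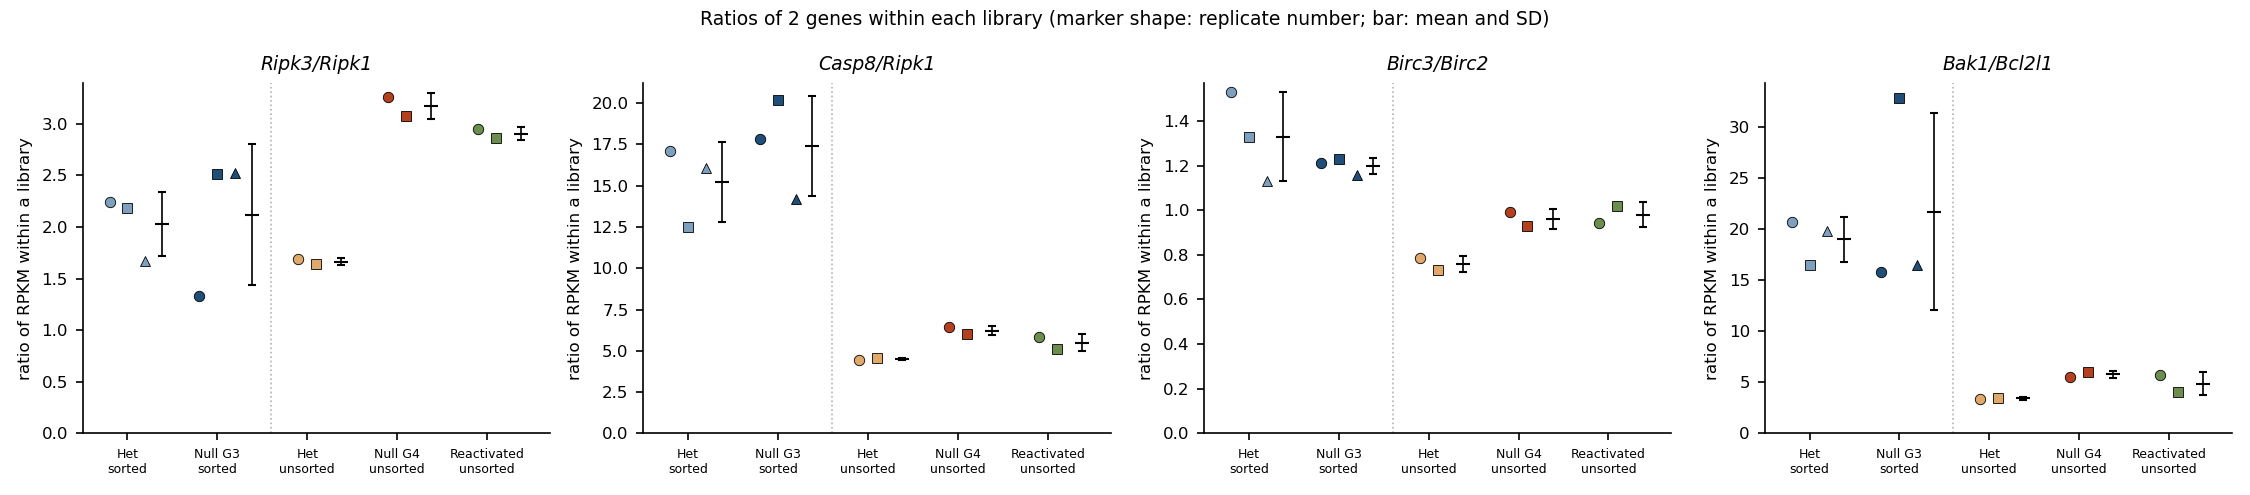
RPKM of 1 gene divided by that of another in the same library (y axis, no unit, from 0) by group (x axis); points are libraries, bars the mean and SD. In unsorted crypts all 4 ratios are lower in both heterozygous libraries than in both null G4 libraries, as for Ripk3 per Ripk1 (1.69 and 1.64 against 3.26 and 3.08), while the sorted groups overlap. Each of the 4 sets a gene that passed over 1 that did not, so its direction follows from those differences and adds no support to them. Mlkl per Ripk3 and Casp8 per Ripk3, not shown, were lower in null G4.

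Over the 8 members, then, 5 rose in null G4, where 4.97% of all genes tested passed in that direction. All 8 lay above heterozygous crypts without overlap, which 74.7% of all genes did. The members' median difference was 0.786 against 0.361 for all genes, and 6 of the 8 exceeded the latter. Equalizing the libraries ended most of these calls. Ripk3 still passed with median scaling (0.873; limma, adjusted p = 0.013) and with quantile normalization (0.805; adjusted p = 0.0177), whereas Mlkl, Casp8, Apaf1 and Birc3 had values of 0.332 to 0.566 without passing, and Ripk1, Bcl2l1 and Xiap turned slightly negative under at least 1 of the 2. The 636 genes that passed among all genes were 89.6% higher as deposited, 45.7% of 322 with median scaling and 57.0% of 237 with quantile normalization. No member passed without the filter on low values, or with a term for sex, which rests on the 2 libraries labelled reactivated (Ripk3 then 1.01, adjusted p = 0.158). Of all genes, 0.0624% passed as higher without the filter and 0.515% with the term for sex. Of the 8 members, 1 passed (Ripk3) when either heterozygous library or the first null G4 library was left out, and 0 when the second null G4 library was (Ripk3 then 1.2, adjusted p = 0.0508). Leaving out 1 library labelled reactivated, whichever it was, gave 6, with 47.2% of all genes then passing as higher.

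**Figure D3:**
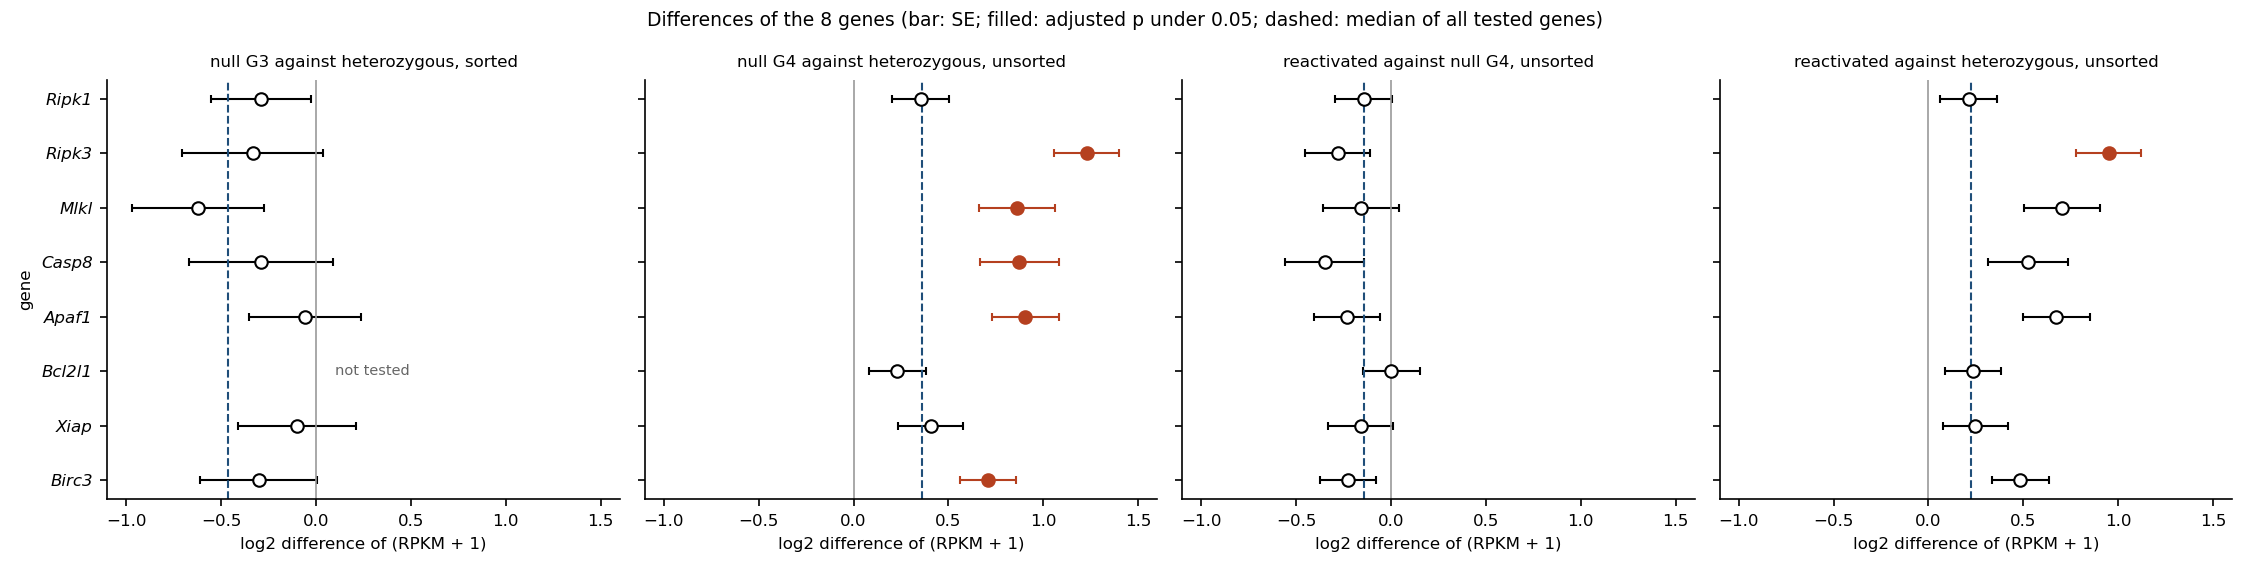
Difference on the log2(RPKM + 1) scale (x axis) of the 8 genes (y axis) in 4 comparisons; bars are standard errors, filled points passed at an adjusted p under 0.05 and the dashed line is the median of all genes tested. Ripk3 lies farthest right in null G4 against heterozygous unsorted crypts (1.23) and is the only filled point in reactivated against heterozygous (0.951), while no point is filled in the panels of sorted cells and of reactivated against null G4.

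Markers of other cell types were measured in the same libraries. The 12 leukocyte markers summed to 3.87 and 9.71 RPKM in heterozygous unsorted crypts and to 4.81 and 4.34 in null G4. Of the 12, 4 and 1 reached 1 RPKM, and the sums overlapped. At low levels, Itgam (0.134 and 0.218 against 0.458 and 0.451 RPKM) and Itgax (0.133 and 0.211 against 0.373 and 0.298) were higher in null G4 without overlap. Cd3e was lower without overlap (0.476 and 1.3 against 0.353 and 0.409). The 7 stromal markers summed to 0.688 and 1.18 RPKM in heterozygous crypts, where none reached 1 RPKM, and to 2.41 and 2.83 in null G4, where 1 did. The 3 endothelial markers summed to 0.257 RPKM or less in every library. The 8 epithelial markers summed to 1590 and 2140 RPKM in heterozygous crypts and to 2720 and 3350 in null G4, in the same direction as the members. The largest part was Krt8, at 642 and 866 against 1170 and 1440 RPKM. Epcam, Cdh1, Krt8, Krt19 and Vil1 were higher in null G4 without overlap, whereas Krt18, Krt20 and Cdx2 overlapped. The 6 crypt base stem cell markers summed to 51.3 and 44.4 RPKM in heterozygous crypts and to 63.8 and 69.3 in null G4, without overlap. The largest part was Lrig1, at 22.1 and 17.8 against 26.8 and 28.4 RPKM. Lgr5 alone of the 6 was lower in null G4, at 0.591 and 0.537 against 0.928 and 0.813 RPKM, and Ascl2 overlapped, so the sum does not speak for every marker. The 7 small-intestinal markers summed to 27.6 and 91.4 RPKM in heterozygous crypts against 16.2 and 14.7 in null G4, also without overlap. The second heterozygous library stood apart in the 5 colon markers, at 2990 RPKM in sum against 817 to 1270 in the other unsorted libraries. Without it 1 member (Ripk3) passed. The part of these shifts in the result was not tested.

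Reactivation of telomerase was the question of the next comparison. No member passed between libraries labelled reactivated and null G4, where 0.0262% of all genes tested did, and none had an unadjusted p under 0.05 against 2.7% of all genes. Lower values without overlap were seen for 5 members (Ripk1, Ripk3, Casp8, Xiap and Birc3), as for 25.5% of all genes. The median member difference was -0.193 against -0.14 for all genes. The null G4 libraries serve here and in the comparison above. For Ripk3 the interval ran from -0.67 to 0.11 and for Casp8 from -0.825 to 0.128, so a decrease that would undo most of the Casp8 difference is within its interval. Mean Casp8 was 20.7 ± 3.87 RPKM (SD, n = 2) in libraries labelled reactivated, 0.783 times that of null G4. Mean Bcl2l1 was nearly equal, 4.11 ± 0.105 against 4.1 ± 0.247 RPKM. The male library of the 2 was lower than the female one for 6 members, the exceptions being Bcl2l1 and Xiap.

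Against heterozygous crypts, the libraries labelled reactivated were higher without overlap for all 8 members, as for 46.7% of all genes. One member passed, Ripk3 (log2 difference 0.951, SE 0.171; limma, adjusted p = 0.0405), where 1.13% of all genes passed upward. Its mean of 10.9 ± 1.29 RPKM (SD, n = 2) was 2.12 times the heterozygous mean. Mlkl was at 0.706 (adjusted p = 0.2), Apaf1 at 0.673 (0.163) and Casp8 at 0.525 (0.33), without passing in limma. The Ripk3 call was lost without the filter on low values, with a term for sex (0.841, adjusted p = 0.0811), with the 4 libraries alone (adjusted p = 0.0547) and in 5 of 6 refits that each left out 1 library (adjusted p 0.0285 to 0.199). It was kept with median scaling (adjusted p = 0.0293) and quantile normalization (0.038), where the share of higher genes among all that passed went from 88.4% to 75.5% and 73.9%. This comparison shares the heterozygous libraries with the first.

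In sorted crypt cells no member passed between null G3 and heterozygous libraries. Ripk3 was at 3.58, 4.44 and 2.79 RPKM in heterozygous libraries and 1.43, 2.79 and 4.12 in null G3 libraries, and Mlkl at 4.87, 3.98 and 2.7 against 1.3, 2.2 and 3.02. Both genes overlapped between the groups. Casp8 was at 27.4, 25.4 and 26.9 RPKM in heterozygous libraries and 19.1, 22.5 and 23.1 in null G3 libraries. It was the 1 member whose null libraries all lay below the heterozygous ones, as did 12.6% of all genes. Its log2 difference of -0.291 (95% interval -1.14 to 0.562) did not pass (limma, adjusted p = 0.573). Mean Casp8 was 21.6 ± 2.16 against 26.6 ± 1.04 RPKM (SD, n = 3).

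The remaining members overlapped in sorted cells. Apaf1 was at 1.43, 2.63 and 1.72 RPKM in heterozygous libraries and 2.26, 1.63 and 1.49 in null G3 libraries. Ripk1 was at 1.6, 2.03 and 1.68 against 1.07, 1.11 and 1.63, and Birc3 at 3.88, 3.83 and 2.97 against 2.26, 2.56 and 3.31. Neither of these was separated by group. Xiap, at 4.66, 4.37 and 4.19 against 4.41, 3.54 and 4.21 RPKM, was the steadiest. Bcl2l1 was at 1.01, 1.43 and 0.669 against 0.843, 0.349 and 0.999 RPKM and was not tested, since too few libraries reached 1 RPKM.

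Of the 7 members tested in sorted cells, 0 passed in limma and 0 had an unadjusted p under 0.05, against 0.0% and 1.64% of all 8734 genes tested. The median member difference was -0.291, while all genes had a median of -0.464, so 6 of the 7 were above it. The sign of 6 members turned positive when libraries were equalized, with Casp8 at 0.213 by median scaling and 0.0663 by quantile normalization, so no direction is given for sorted cells. Without the first null G3 library, which stood apart by its markers, the differences ran from -0.41 (Mlkl) to -0.0487 (Ripk3) and 0 members passed.

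The difference between the null effects, unsorted minus sorted, was tested over all 12 libraries. As deposited it was positive for all 8 members, though Ripk1, Bcl2l1 and Xiap turned negative with either scaling, and ran from 0.469 (Bcl2l1) to 1.57 (Ripk3, SE 0.439), with a member median of 0.987 against 0.733 for all genes. No member passed in limma (adjusted p 0.19 to 0.271), where 0.303% of all genes did. An unadjusted p under 0.05 was seen for 6 members and for 26.1% of all genes. Generation, sorting and sex all differ between the arms of this contrast and cannot be told apart. All 36 genes that passed were higher as deposited, against 68.8% of 16 with median scaling and 77.8% of 18 with quantile normalization. Without the first null G3 library no member passed either, and Ripk3 was at 1.28 (adjusted p = 0.0515). Without the third null G3 library 5 members passed as higher, along with 29.4% of all genes.

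Levels of the 2 fractions are set side by side without a test, since the sets list different genes and appear to have been normalized separately. Within heterozygous sorted cells the order by mean RPKM was Casp8 (26.6), Xiap (4.4), Mlkl (3.85), Ripk3 (3.61), Birc3 (3.56), Apaf1 (1.93), Ripk1 (1.77) and Bcl2l1 (1.04). Xiap, Mlkl, Ripk3 and Birc3 overlapped neighbour by neighbour, as did Apaf1 and Ripk1. In null G3 the neighbours from Xiap (4.05) through Ripk3 (2.78), Birc3 (2.71), Mlkl (2.17), Apaf1 (1.79) and Ripk1 (1.27) all overlapped, and Bcl2l1 (0.73) lay below. Of these null G3 pairs, Xiap with Ripk3 and Birc3 with Mlkl kept their order in every library. Casp8 was 17.1, 12.5 and 16.1 times Ripk1 in heterozygous sorted libraries but 4.44 and 4.55 times in heterozygous unsorted ones.

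The order in unsorted crypts differed between groups. In heterozygous crypts it was Casp8 (14.0), Xiap (6.53), Mlkl (6.05), Ripk3 (5.17), Birc3 (4.01), Bcl2l1 (3.36), Ripk1 (3.11) and Apaf1 (2.6). Ranges over libraries overlapped for Xiap and Mlkl, Mlkl and Ripk3, and Bcl2l1 and Ripk1, yet each of these pairs kept its order in both libraries. In null G4 the order was Casp8 (26.4), Ripk3 (13.5), Mlkl (11.8), Xiap (8.93), Birc3 (7.18), Apaf1 (5.74), Ripk1 (4.26) and Bcl2l1 (4.1). There the ranges of the last pair alone overlapped, with the same order in both libraries. In libraries labelled reactivated the order was Casp8 (20.7), Ripk3 (10.9), Mlkl (10.5), Xiap (7.89), Birc3 (6.01), Apaf1 (4.81), Bcl2l1 (4.11) and Ripk1 (3.76). Ranges overlapped for Ripk3 and Mlkl, Birc3 and Apaf1, and Apaf1 and Bcl2l1, of which the last pair alone changed order between libraries. Ripk3 thus held the fourth place in heterozygous crypts and the second in both generation 4 groups.

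The 8 genes were next set among 70 cell death genes grouped by role. In null G4 against heterozygous crypts, 13 of the 65 tested rose and 0 fell, where 4.97% of all genes passed as higher, with a median of 0.433 against 0.361 for all genes. Of the 13, 5 are members, and Tnf met the filter on low values only through libraries other than the heterozygous ones. With median scaling or quantile normalization 3 of the 65 passed, where 1.28% and 1.18% of all genes passed as higher. With a term for sex 0 passed, and without the filter 0 of 68. Of all genes, only 0.515% and 0.0624% then passed as higher, so these 0 counts do not set the lists apart. Leaving out 1 library gave 1 or 6 (first or second heterozygous), 2 or 0 (first or second null G4) and 45 (either labelled reactivated). The 4 libraries alone gave 46 of 64, with 49.2% of all genes passing as higher.

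Death ligands and receptors had 3 of 8 tested genes higher (median 0.662), where 4.97% of all genes passed as higher with a median of 0.361. Tnfsf10, which encodes the ligand TRAIL, went from 1.73 and 2.49 RPKM (heterozygous) to 5.46 and 5.97 (null G4) (log2 difference 1.12; limma, adjusted p = 0.0116). Tnfrsf1b, TNF receptor 2, went from 3.86 and 4.0 to 8.86 and 9.36 RPKM (1.04; adjusted p = 0.0137). Tnf itself was low, from 0.166 and 0.283 to 1.4 and 1.38 RPKM (0.967; adjusted p = 0.0373). It met the filter of RPKM 1 only through null G4 and libraries labelled reactivated, where it was high. Its call is therefore a description and no support for the count. The receptor gene Tnfrsf1a did not pass (0.551; adjusted p = 0.0625).

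Necroptosis had 3 of 8 genes higher (median 0.552), namely Ripk3, Mlkl and Zbp1, a nucleic acid sensor that activates RIPK3. Zbp1 went from 3.21 and 4.2 RPKM (heterozygous) to 7.69 and 7.89 (null G4) (0.908; limma, adjusted p = 0.027). In the group of adaptors, ubiquitin ligases and brakes, 1 of 16 rose (median 0.404), near the 4.97% and the median of 0.361 for all genes. This was Tnfaip3, which encodes the brake A20, at 2.19 and 2.25 against 3.9 and 3.91 RPKM (0.607; limma, adjusted p = 0.0455). Cflar (0.391), Fadd (0.33) and Tradd (0.614) did not pass.

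On the mitochondrial side, 1 of 9 pro-apoptotic BCL2 relatives rose (median 0.385 against 0.361 for all genes, of which 4.97% passed as higher). Bak1 went from 9.99 and 13.0 RPKM (heterozygous) to 21.8 and 25.8 (null G4) (0.995; limma, adjusted p = 0.0456). None of the 4 anti-apoptotic relatives passed (median 0.332), the nearest being Mcl1 (0.668; limma, adjusted p = 0.0595). Apaf1 was the 1 of 7 apoptosome and mitochondrial release genes that rose (median 0.399). Single genes passing do not set these lists apart from all genes.

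Caspases and DNA fragmentation genes had 2 of 7 higher (median 0.54), where 4.97% of all genes passed as higher with a median of 0.361. Casp8 was among them. The IAP group had 2 of 6 higher (median 0.418), Birc3 and Birc5. Birc5 encodes survivin, which also works in chromosome segregation of dividing cells, and was at 2.9 and 3.52 against 7.28 and 8.56 RPKM (1.08; limma, adjusted p = 0.0439).

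**Figure D4:**
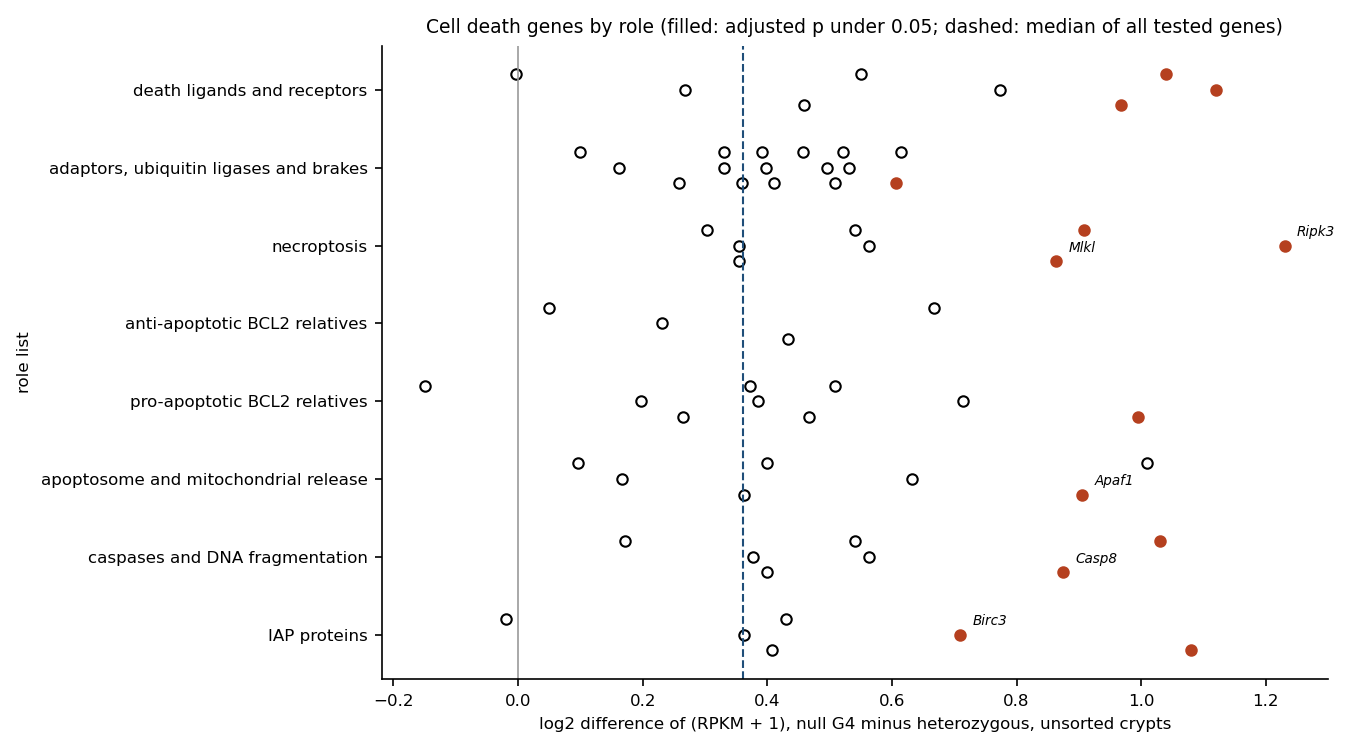
Difference between null G4 and heterozygous unsorted crypts on the log2(RPKM + 1) scale (x axis) for the tested genes of 8 role lists (y axis); each point is a gene, filled where the adjusted p was under 0.05 and named where it is also a member, and the dashed line is the median of all genes tested (0.361). The 13 filled points start at 0.607 (Tnfaip3), with Ripk3 farthest right at 1.23, and no filled point lies below 0.

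In the other comparisons few genes of the wider lists passed. None of 47 tested genes passed in sorted cells (median -0.368 against -0.464) and none of 65 in libraries labelled reactivated against null G4 (median -0.144 against -0.14). Against heterozygous crypts, 4 of 65 passed in libraries labelled reactivated (Tnfsf10, Ripk3, Tnfrsf1b and Zbp1), where 1.13% of all genes passed as higher. That count was 2 with quantile normalization and with no mean trend, where 0.567% and 1.09% of all genes passed as higher. It was 1 with the 4 libraries alone (1.34% of all genes). With a term for sex or without the filter it was 0, where 0.855% and 0.0702% of all genes passed as higher. Leaving out 1 library gave 0 or 1 (first or second heterozygous), 2 (either null G4) and 0 or 19 (first or second labelled reactivated).

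Across the 6 unsorted libraries the members had similar patterns. Pearson r of log2(RPKM + 1) between members ran from 0.703 (Apaf1 with Bcl2l1) to 0.995 (Ripk3 with Birc3). These points share their libraries and the shift of all genes, so the values are a description. The genes of highest r with Ripk3 were Kdm2a (0.9989) and Hk2 (0.9986), 1 with Casp8 was Abracl (0.9994), and those with Mlkl were St14 (0.9989) and Tmod3 (0.9986). For Ripk1 they were Bcap31 and Dctpp1, for Apaf1 Tmem30b and Heatr5a, for Birc3 Ap1g1 and Fbxo4, for Bcl2l1 Map2k1 and Kalrn, and for Xiap Ppp2r5e and Eps8.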

How the data were processed

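Per the labels' protocols, libraries were prepared with the TruSeq RNA kit from total RNA (Qiagen RNeasy Mini). What the authors deposited is RPKM, as 1 table with 12 library columns; 0 sample columns were left unused. Per the submitters' processing notes, STAR 2.3.0e and mm10 were used, with no role given; annotation, counting tool and strand: not given in the sources used here. By definition RPKM divides by the mapped reads of a library. Where these include mitochondrial ribosomal RNA, a change in it shifts every other gene. Its part in the shift of all genes was not tested.

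From these, log2(RPKM + 1) was computed. The filter kept genes reaching RPKM 1 in 3 or more sorted libraries, or in 2 where unsorted ones were fitted. Tests used limma 3.58.1 under R 4.3.3 (two-sided, empirical Bayes with mean trend). Benjamini-Hochberg adjustment ran over all genes of each of the 5 comparisons, and the threshold for passing was 0.05. The 6 unsorted libraries were fitted together, and the fit was tested on simulated data. The alternatives were pseudocount 0.1, no filter, no trend, quantile normalization, median scaling, a term for sex, 4 libraries alone, the replicate number as a block, and leaving out each library. The members and role lists were chosen with earlier results of these data known. From each list up to 4 passing genes of smallest p in null G4 crypts were named, and where none passed the 1 of smallest p; Casp9, Cflar, Birc2, Fadd, Tradd and Tnfrsf1a were added after values were seen. Some genes that the rule names are not reported here. Gene positions come from GENCODE M21, to which 28224 of 28793 identifiers matched. In unsorted libraries 80.0% to 82.6% of low values were whole reads (tolerance 0.05, up to 5 reads). Python 3.11.15, pandas 2.3.3, numpy 2.4.6 and matplotlib 3.10.9 were used.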

Additional observations from a re-analysis of the deposited data

Results flagged for a closer look

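For Casp8, with the values as deposited, every null G3 library lay below every heterozygous library among sorted cells (as for 12.6% of all genes), and every null G4 library above every heterozygous one among unsorted crypts (as for 74.7%). All genes had medians of -0.464 and 0.361 in these comparisons, and Casp8 was at -0.291 and 0.874. The difference between these effects was 1.17 on the log2(RPKM + 1) scale (limma, adjusted p = 0.19) against a median of 0.733 for all genes, so the difference itself did not pass. The sorted Casp8 value turned positive under quantile normalization (0.0663) and median scaling (0.213), so no direction is given for it.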

How the results depend on the processing

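In null G4 against heterozygous crypts 5 members passed; 0 did with no filter on low values, 1 with quantile normalization, 1 with median scaling, 0 with a term for sex, and 0 to 6 when 1 library was left out. In libraries labelled reactivated against heterozygous ones 1 passed; 0 did with no filter, a term for sex or the 4 libraries alone, and 0 to 4 when 1 library was left out (4 without the second library labelled reactivated, with 19.3% of all genes then passing as higher). For the difference of null effects 0 passed, and 0 to 5 when 1 library was left out (5 without the third null G3 library). The cause was not tested.

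The counts over all genes for null G4 against heterozygous moved from 636 to 21 (no filter), 237 (quantile), 322 (median scaling), 69 (sex), 5804 (4 libraries) and 176 to 5693 (1 library left out). For libraries labelled reactivated against null G4 they moved from 3 to 0 (no filter and quantile), 6 (sex), 8 (4 libraries) and 4 to 184; against heterozygous from 146 to 22 (no filter), 88 (quantile), 94 (median scaling) and 120 to 2298. For the difference of null effects they moved from 36 to 11 (pseudocount 0.1), 70 (no filter), 18 (quantile), 16 (median scaling), 5 (sex) and 8 to 3533.

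Deviations of same-numbered libraries from their group means had r of -0.19 to 0.0533 in sorted cells, and in unsorted crypts 0.219 for heterozygous with null G4, -0.0691 for heterozygous with reactivated and -0.124 for null G4 with reactivated; each unsorted value is a single one, since 2 libraries give 1 deviation. The labels name nothing shared by a number, so no pairing was taken. With the replicate number as a block 5 members passed in null G4 against heterozygous, 0 against null G4 and 1 against heterozygous in libraries labelled reactivated, and 0 in sorted cells; all genes passing numbered 1317, 9, 264 and 0, and 18 for the difference of null effects. With the numbers of the libraries labelled reactivated crossed, chosen after seeing the data, 0 members and 1 gene passed against null G4.

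Signs turned as follows. In sorted cells, quantile normalization gave Ripk1 0.171, Ripk3 0.167, Casp8 0.0663, Apaf1 0.405, Xiap 0.371 and Birc3 0.2, and median scaling 0.213, 0.168, 0.213, 0.446, 0.404 and 0.202 in the same order; Apaf1 ran from -0.181 to 0.108 when 1 library was left out. In null G4 against heterozygous crypts, Bcl2l1 was -0.0938 (quantile) and -0.127 (median scaling), Xiap -0.0291 (quantile) and Ripk1 -0.00423 (median scaling). In libraries labelled reactivated against null G4, Mlkl was 0.0103 and Xiap 0.00811 (quantile), Ripk1 0.00488 (median scaling) and Bcl2l1 -0.0186 (sex) and -0.047 to 0.0518 (1 library left out); against heterozygous, Xiap was -0.0209 (quantile). For the difference of null effects, quantile normalization gave Ripk1 -0.12, Bcl2l1 -0.267 and Xiap -0.38, and median scaling -0.149, -0.325 and -0.288.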
